A study of Mus musculus with 26 samples.

Results

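The nuclear receptor genes of the thyroid hormone, retinoid and steroid families were followed in murine oligodendrocyte progenitor cells (OPCs) and in the oligodendrocytes (OLs) differentiated from them. The members were chosen by name, as the genes Thra, Thrb, Rara, Rarg, Rxra, Rxrb, Rxrg, Nr1h2, Vdr and Nr3c1. Of these 10 genes, 8 were listed, against 10104 transcripts in all. Thra, Rara, Rxra, Rxrb, Nr1h2 and Nr3c1 were listed for both cell types, and Thrb and Rarg for OLs only. Rxrg and Vdr were listed for neither. The authors listed a transcript where it had at least 1 FPKM (fragments counted per unit of transcript length and of sequencing depth) at the start of the chase and was not at 0 at both 1 and 2 h.

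Nuclear receptors are transcription factors that small lipophilic ligands switch. Thyroid hormone receptors, retinoic acid receptors, liver X receptors and the vitamin D receptor bind DNA as partners of the retinoid X receptors, whereas the glucocorticoid receptor enters the nucleus on binding its hormone and acts mostly as a dimer of its own kind. Thyroid hormone is a classical signal for OPCs to leave the cell cycle and form myelin-making OLs, and it is used for that purpose in culture.

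Cells of strain 129S/SvEv were labelled with 5-ethynyluridine (5-EU), a uridine analogue that can be coupled to biotin, and the label was then chased with uridine. OPCs, which came from epiblast stem cells, were kept in DMEM/F12 with N2 Max, B27, bFGF and PDGFA. OLs were grown in DMEM/F12 with N2 Max, B27, noggin, IGF-1, cyclic AMP, NT3 and T3, the active thyroid hormone, and were labelled from partway through their differentiation. The 25 libraries analysed were 15 from OPCs (3 replicates) and 10 from OLs (2 replicates), each replicate at 0, 1, 2, 4 and 6 h of chase. The addition of T3 and the change of cell type therefore came together, and they cannot be told apart in any comparison here. The hormone content of N2 Max and B27 is not given in the labels. Per the study, some cells of the OL cultures stayed undifferentiated, and each OL replicate matched an OPC replicate, but which replicate numbers belong together is not given.

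The FPKM values summed to 391712 to 432287 per OPC library and 342224 to 350563 per OL library at 0 h. The read depth of the libraries is unknown. By 6 h the median transcript kept 11% to 17.7% of its 0 h level in the OPC replicates and 31.5% to 36.6% in the OL replicates. All 8 of the OL markers examined were listed for OLs, with a summed level of 2790 to 6064 FPKM, and 2 of them for OPCs, at 37.6 to 55.1 FPKM. OL replicate 1 was at the higher end of that range. The 5 OPC markers summed to 236 to 364 FPKM in OPCs and 251 to 255 FPKM in OLs. Of 4 astrocyte markers, 1 was listed for OPCs (22.9 to 37.0 FPKM) and 3 for OLs (summing to 85.9 to 106 FPKM), with Gfap at 6.86 to 8.12 FPKM in OLs and Aqp4 listed for neither. Of 4 neuronal markers, 1 was listed for OPCs (13.3 to 17.4 FPKM) and 2 for OLs (25.9 to 27.7 FPKM), with Rbfox3 and Snap25 listed for neither. No marker of microglia, endothelium or pluripotent cells was listed for either cell type. The part of these other cells in the results below was not tested, and in bulk RNA fewer cells of a type and less RNA per cell cannot be told apart.

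The sequences that bear on decay or on the identity of a transcript are shown first, from the GENCODE M21 transcripts of GRCm38. The Thra locus makes a receptor that binds T3 (alpha 1) and a splice form with another end that does not (alpha 2). The transcript listed here was Thra-202, with 410 codons, and the other was Thra-201, with 492 codons. Their coding sequences were the same for 370 codons, and 68.6% of the bases of Thra-202 lay in exons it shares with Thra-201. The capitals mark the 15 bases that follow the last shared base of the coding sequence.
Thra-202: agctgctgatgaaggTGACTGACCTCCGCA
Thra-201: agctgctgatgaaggAGAGAGAAGTGCAGA
One transcript per gene was tabulated by the authors, so reads from the shared stretch cannot be assigned to either form, and every Thra value below may hold both.

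The 3′ UTRs were searched on the sense strand for the AU-rich pentamer ATTTA, for the AU-rich nonamer TTATTTATT, which contains an ATTTA, and for TGTANATA, the motif bound by Pumilio proteins. Rarg held the only nonamer among the 8 receptors and Rara held 1 TGTANATA, with the motif in capitals in each window of 30 bases.
Rarg: aagcctctatTTATTTATTagcttttgttt
Rara: gggagactcccTGTACATAtcctgcgtacc
The motifs in capitals began at base 822 of the Rarg 3′ UTR and at base 401 of the Rara 3′ UTR. Of 3′ UTRs within 20% of the length of that of Rarg, 6.33% held the nonamer, and of those within 20% of the length of that of Rara, 27.4% held TGTANATA. The only other TGTANATA matches were 2 in Nr3c1. Thra and Rxrb held no ATTTA, Thrb and Nr3c1 held 9 each, and 69.1% of all 3′ UTRs held at least 1. A match describes the letters of the window and was not tied to any decay rate.

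Thra, the gene of thyroid hormone receptor alpha, was the most abundant receptor in both cell types and was higher in OLs. At 0 h it stood at 59.4, 40.7 and 54.6 FPKM in OPC replicates 1, 2 and 3, and at 94.2 and 74.3 FPKM in OL replicates 1 and 2. Both OL libraries lay above all 3 OPC libraries, as was true of 28.0% of the 8177 transcripts listed for both cell types. The mean rose from 51.6 ± 9.71 FPKM (SD, n = 3) to 84.2 ± 14.1 FPKM (SD, n = 2). The change was 0.70 ± 0.22 (SE) on the log2(FPKM + 1) scale, OL minus OPC, and passed the test (limma, Benjamini-Hochberg adjusted p = 0.0341). Of the 6 receptors tested 1, Thra, was called, where 31.6% of all transcripts were, 14.1% as higher and 17.5% as lower in OLs. The call was lost without OPC replicate 2 (adjusted p = 0.0566), OPC replicate 3 (0.0913), OL replicate 1 (0.233) or OL replicate 2 (0.0688), with the change still positive at 0.54 to 0.87. It was also lost when each library was centred on its median (0.67, adjusted p = 0.0617).

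Thrb, the gene of the second thyroid hormone receptor, was listed for OLs only. It stood at 1.07 and 1.2 FPKM in OL replicates 1 and 2, just above the listing limit, where 0.246% and 0.554% of the transcripts were lower. No comparison with OPCs could be made. Per unit of transcript length, Thra RNA was the more abundant of this pair in every OL library.

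The retinoid X receptors, partners of the thyroid hormone, retinoic acid and liver X receptors, differed from each other in their 0 h pattern. Rxra stood at 24.4, 18.5 and 23.0 FPKM in OPC replicates 1, 2 and 3 and at 6.58 and 17.0 FPKM in OL replicates 1 and 2. Both OL libraries lay below all OPC libraries, which 31.4% of transcripts also did, and the OL replicates differed widely from each other. The change was -0.96 ± 0.36 (SE) and missed the threshold (adjusted p = 0.0669). It passed when libraries were centred on their medians (-1.0, adjusted p = 0.0457) and without OL replicate 2 (-1.59, adjusted p = 0.0179), and without OL replicate 1 the change was -0.34 (adjusted p = 0.485). Rxrb stood at 21.1, 15.5 and 13.6 FPKM in the OPC replicates and at 20.0 and 15.7 FPKM in the OL replicates. Its groups overlapped, with a change of 0.10 ± 0.27 (SE; adjusted p = 0.795) whose sign was negative in some of the alternatives. Rxrg was not listed.

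The retinoic acid receptors were scarce. Rara, the alpha receptor, stood at 2.72, 2.75 and 2.80 FPKM in the OPC replicates and at 1.58 and 1.98 FPKM in the OL replicates. The OL libraries lay below the OPC libraries, but the change of -0.44 ± 0.27 (SE) did not pass the test (adjusted p = 0.243). Rarg, the gamma receptor, was listed for OLs only, at 1.60 and 3.79 FPKM, so its replicates differed by more than those of Rara.

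Nr1h2, the gene of liver X receptor beta, which senses oxysterols, did not pass the test in either direction. It stood at 30.3, 21.2 and 21.2 FPKM in the OPC replicates and at 21.9 and 28.3 FPKM in the OL replicates, and the groups overlapped (0.06 ± 0.25, SE; adjusted p = 0.88). The sign of this small change turned in 4 of the alternatives. Nr3c1, the glucocorticoid receptor gene, stood at 11.8, 24.2 and 20.7 FPKM in the OPC replicates and at 19.1 and 39.5 FPKM in the OL replicates. Its groups overlapped as well, and its change of 0.58 ± 0.37 (SE) missed the threshold (adjusted p = 0.258). It was 0.29 without OPC replicate 1, 1.08 without OL replicate 1 and 0.07 without OL replicate 2. The spread within each cell type was larger for Nr3c1 than for Nr1h2. Vdr, the vitamin D receptor gene, was not listed.

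In order of mean 0 h level, OPCs had Thra, Nr1h2, Rxra, Nr3c1, Rxrb and Rara. Thra stood 2.13 times above the next gene and Rara 6.07 times below Rxrb, with no overlap of libraries at either step, whereas neighbours among the middle 4 genes overlapped. In OLs the order was Thra, Nr3c1, Nr1h2, Rxrb, Rxra, Rarg, Rara and Thrb. Thra stood 2.87 times above the next gene, and the libraries overlapped between Nr3c1 and Nr1h2, between Rxrb and Rxra, and between Rarg and Rara.

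**Figure D1:**
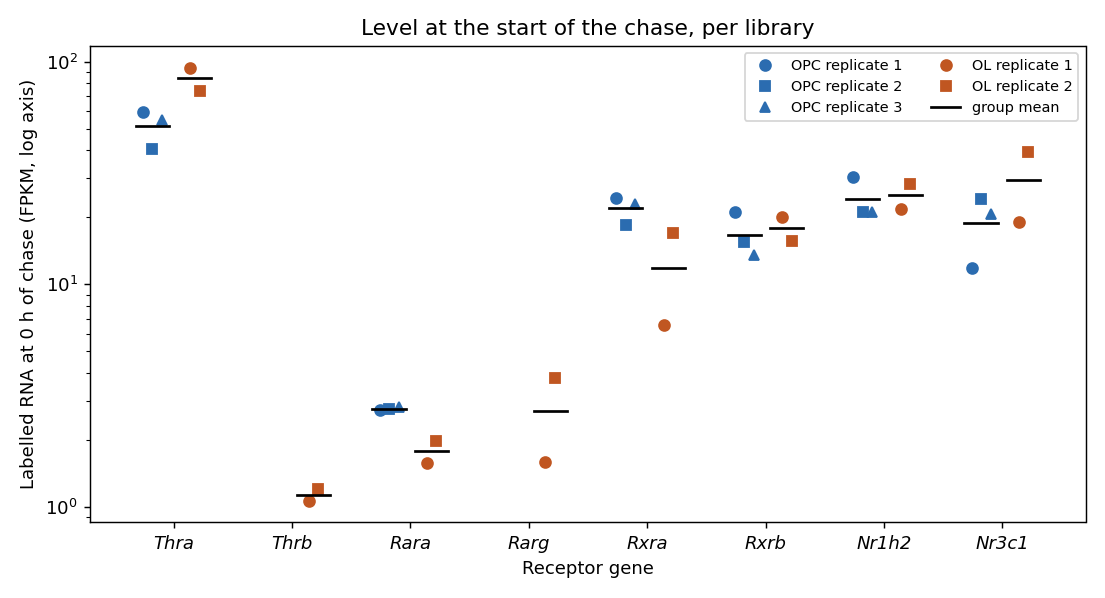
Level of each receptor gene at 0 h of chase in FPKM on a log axis, with 1 point per library, blue for OPCs, orange for OLs and a black bar for the group mean. Thra lies highest in both cell types, at 40.7 to 59.4 FPKM in OPCs and 74.3 to 94.2 FPKM in OLs, and Thrb lowest, at 1.07 to 1.2 FPKM in OLs.

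Through the chase, labelled Thra RNA did not pass the test for a fall in either cell type, unlike all other receptors listed. At 6 h it stood at 45.6, 47.0 and 50.5 FPKM in OPC replicates 1, 2 and 3, which was 76.8%, 116% and 92.5% of the 0 h libraries. In OL replicates 1 and 2 it stood at 124 and 61.8 FPKM, or 132% and 83.2% of 0 h. In every replicate this share was higher than that of 84.5% to 95.0% of the transcripts. A lower point came at 1 h in OPC replicates 1 and 3 and OL replicate 1, at 52.6%, 72.3% and 63.5% of 0 h, and the later points of the same replicates were higher again. The slope on time was 0.02 ± 0.04 (SE, log2 units per h) in OPCs (adjusted p = 0.671) and 0.05 ± 0.04 in OLs (adjusted p = 0.341), where the median slope of all transcripts was -0.38 in OPCs and -0.20 in OLs. With each library set to the 0 h median of its replicate, which moves the median slopes to 0.06 and 0.03, Thra rose in both cell types, by 0.46 per h in OPCs (adjusted p = 1.05e-08) and 0.28 per h in OLs (adjusted p = 1.57e-05).

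The other receptors fell in OPCs. By the slope test 5 of 6 members fell, against 81.9% of the 8530 OPC transcripts, while 5.06% rose and 87.0% were called either way. With each library set to its 0 h median, 3365 transcripts rose and 1154 fell, in place of 432 and 6989, and among the members Rxra and Rxrb still fell. Rxrb fell by 0.62 ± 0.06 log2 units per h (SE; limma adjusted p = 1.7e-08), where 8.79% of transcripts had a steeper slope, and stood at 6.90%, 0% and 3.77% of 0 h at 6 h in OPC replicates 1, 2 and 3. Rxra fell by 0.57 ± 0.06 per h (adjusted p = 5.32e-08), to 8.40%, 8.89% and 3.98% of 0 h. No OPC replicate kept 10% of either retinoid X receptor to the end of the chase. A value of 0 can be a level too low to detect, and 21.6% of all transcripts in OPC replicate 2 stood at 0 at 6 h.

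Nr1h2 fell in OPCs by 0.50 ± 0.07 per h (SE; limma adjusted p = 5.92e-07) and stood at 4.71%, 7.64% and 10.4% of 0 h at 6 h. Its replicate 3 was uneven, at 32.2% at 2 h and 66.6% at 4 h. Nr3c1 fell by 0.48 ± 0.07 per h (adjusted p = 2.49e-06), to 17.5%, 12.5% and 16.7% of 0 h, and its share at 6 h was above that of every other falling receptor in each OPC replicate. Rara fell by 0.36 ± 0.04 per h (adjusted p = 1.38e-07) and was listed at 0 in all 3 OPC replicates at 6 h. Of all transcripts, 15.7%, 21.6% and 16.4% were at 0 at 6 h in OPC replicates 1, 2 and 3. Rara began at 2.72 to 2.80 FPKM, so its 0 can be a level too low to detect. On the log2(FPKM + 1) scale the slopes of low genes such as Rara, Rarg and Thrb are understated.

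In OLs 7 of 8 members fell, against 68.9% of the 9751 OL transcripts, while 1.98% rose and 70.9% were called either way. With each library set to its 0 h median 3061 transcripts rose and 1308 fell, in place of 193 and 6716, and no receptor fell past the threshold. Nr3c1 had the steepest slope of the receptors in OLs, at -0.31 ± 0.04 per h (SE; limma adjusted p = 6.98e-06), and stood at 21.1% and 27.7% of 0 h at 6 h in OL replicates 1 and 2. Rxra had a slope of -0.28 ± 0.05 (adjusted p = 9.11e-05) and stood at 22.4% and 27.2%. Rxrb had a slope of -0.22 ± 0.07 (adjusted p = 0.00562) and stood at 28.5% and 35.7%. These 3 genes fell past the threshold without OL replicate 2 as well, but the calls of Nr1h2, Rara, Rarg and Thrb were lost without it (adjusted p = 0.211, 0.133, 0.17 and 0.278), and those of Rxrb and Thrb without OL replicate 1 (0.108 and 0.113). Without the 6 h libraries 3 receptors were called, Nr3c1, Rarg and Rxrb.

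Nr1h2 kept the most label of the falling receptors in OLs, at 42.6% and 46.8% of 0 h at 6 h, with a slope of -0.14 ± 0.06 (SE; limma adjusted p = 0.0338). Rara stood at 20.5% and 13.6% at 6 h (slope -0.19 ± 0.05, adjusted p = 0.00163). The 2 genes listed for OLs only had uneven courses. Rarg had 38.9% of its 0 h level at 6 h in OL replicate 1 but 4.31% in OL replicate 2, where it was listed at 0 at 4 h (slope -0.23 ± 0.07, adjusted p = 0.00523). Thrb stood at 31.3% of 0 h at 1 h in OL replicate 1 and at 186% in OL replicate 2, and at 9.12% and 38.2% at 6 h (slope -0.13 ± 0.05, adjusted p = 0.0267).

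**Figure D2:**
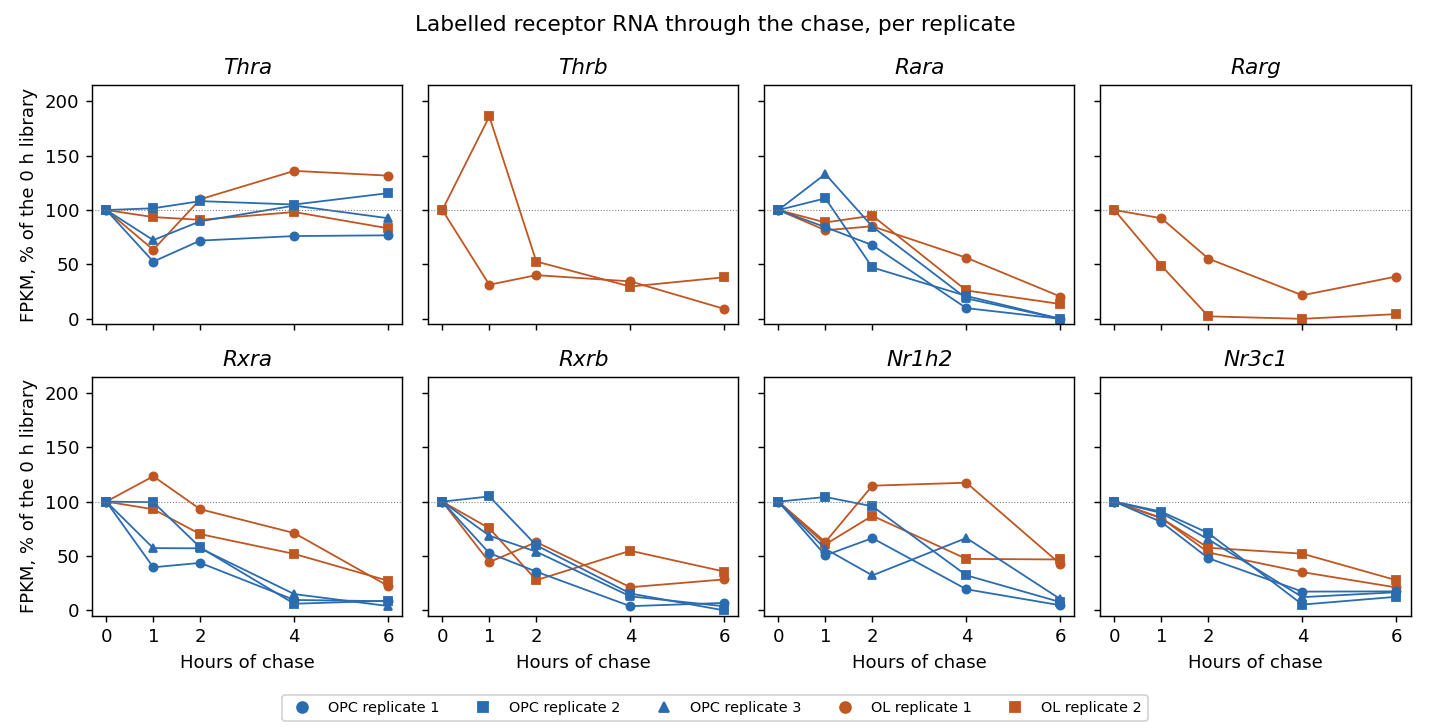
Labelled RNA of each receptor as a percent of the 0 h library of its replicate (vertical axis) against hours of chase (horizontal axis), with 1 line per replicate, blue for OPCs and orange for OLs. Thra ends around the dotted line at 100%, at 76.8% to 132%, and the orange lines of Rxra, Rxrb, Nr1h2, Nr3c1 and Rara end above all blue lines.

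The fall was less steep in OLs than in OPCs for 4 of the 6 receptors tested. Errors and p-values of this test measure the scatter of libraries about the lines, not the spread of slopes between replicates. By the test of the difference in slope, 31.5% of the 8177 transcripts fell less steeply in OLs and 0.404% more steeply, 31.9% in all, and the median transcript shifted as well, by 0.14 log2 units per h. Rxrb differed most, by 0.40 ± 0.09 (SE; limma adjusted p = 0.00264), above 93.9% of transcripts. Nr1h2 differed by 0.36 ± 0.10 (adjusted p = 0.00647), above 90.4% of transcripts, and Rxra by 0.29 ± 0.08 (adjusted p = 0.0103), above 81.7%. Rara, at 0.17 ± 0.06 (adjusted p = 0.0272), lay above 55.5% of transcripts. Nr3c1 had a difference of the same size but a larger error, 0.17 ± 0.09 (adjusted p = 0.163), and Thra had 0.03 ± 0.06 (adjusted p = 0.687).

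At 6 h the share kept was higher in both OL replicates than in all 3 OPC replicates for 5 of the 6 receptors, all but Thra, as it was for 48.9% of transcripts. The slope calls rested on both OL replicates. Without either of them the differences of Rxrb, Nr1h2, Rxra and Rara stayed positive, at 0.13 to 0.45. Without OL replicate 1 Rxrb was called (adjusted p = 0.029) and Rara, Rxra and Nr1h2 were not (0.257, 0.0929 and 0.0774), and without OL replicate 2 no receptor was called, with adjusted p = 0.0543 for Rxrb, 0.0553 for Nr1h2, 0.0965 for Rxra and 0.0804 for Rara. The call of Rara was also lost without OPC replicate 2 (0.056) or OPC replicate 3 (0.061). With each library set to its 0 h median, 338 transcripts fell less steeply and 1859 more steeply in OLs, in place of 2576 and 33, and of the receptors Thra was called, at -0.18 (adjusted p = 0.0228). Without the 6 h libraries Nr3c1 (0.40, adjusted p = 0.0274) and Rxra were called, and Rxrb (0.0571), Nr1h2 (0.143) and Rara (0.149) were not.

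**Figure D3:**
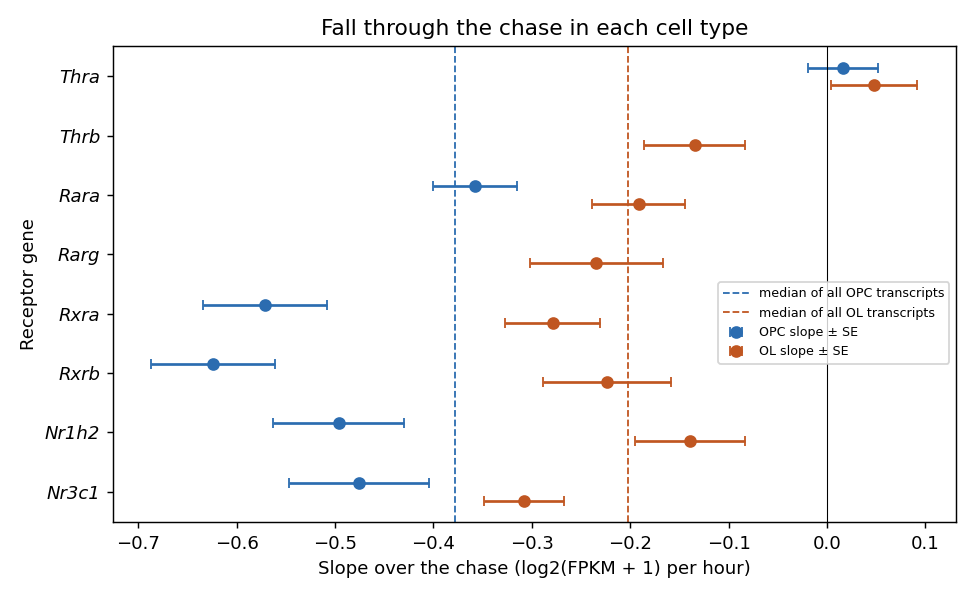
Slope of each receptor over the chase in log2(FPKM + 1) per hour (horizontal axis), with standard errors, blue for OPCs and orange for OLs; the dashed lines are the medians of all transcripts, -0.38 and -0.20. Rxrb and Rxra lie farthest left in OPCs, at -0.62 and -0.57, and Thra lies at 0.02 in OPCs and 0.05 in OLs.

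The half-lives that the authors fitted to these courses, in hours and with a ceiling of 6 h, were given per replicate. Thra was at the ceiling in all 5 replicates, which was true of 16.1% of the 8112 transcripts with a half-life in each. Its half-life is therefore known only as at least 6 h, and no difference between the cell types could be measured. For the other 5 receptors in both tables, both OL values lay above all 3 OPC values, as for 35.9% of transcripts, while 2.01% lay the other way.

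Nr1h2 had half-lives of 1.69, 2.45 and 1.22 h in OPC replicates 1, 2 and 3, and stood at the ceiling and at 5.48 h in OL replicates 1 and 2. Rxra had 1.18, 1.96 and 1.46 h in OPCs, and stood at the ceiling and at 3.90 h in OLs. With the ceiling value entered as 6 h, the log2 difference was 1.74 ± 0.35 (SE) for Nr1h2 and 1.69 ± 0.33 for Rxra, larger than that of 97.2% and 96.6% of transcripts. Rxrb had 1.08, 1.96 and 1.85 h in OPCs and 2.98 and 4.04 h in OLs, a log2 difference of 1.14 ± 0.36. The median difference of all transcripts was 0.37.

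Nr3c1 had half-lives of 1.89, 2.00 and 2.32 h in OPCs and 2.65 and 3.24 h in OLs, a log2 difference of 0.51 ± 0.15 (SE). Rara had 1.96, 1.85 and 1.96 h in OPCs and 4.80 and 2.09 h in OLs, so that the OL replicates differed from each other by more than OL replicate 2 did from OPCs (0.72 ± 0.42). In OLs alone, Thrb had 1.52 and 2.28 h and Rarg 2.34 and 0.76 h. The medians of all transcripts were 4.15 and 4.05 h in these replicates, and 15.8% and 21.4% of transcripts were shorter-lived than Thrb.

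None of the 6 receptors passed the test of half-life over all transcripts (limma on log2 half-life), in which 3.54% of 8112 were called, 3.39% as longer and 0.148% as shorter in OLs. Adjusted p-values were 0.099 for Rxra, 0.102 for Nr1h2, 0.172 for Nr3c1, 0.196 for Rxrb and 0.447 for Rara, and 4 receptors and 1866 transcripts had an unadjusted p under 0.05. With half-life taken in hours Nr1h2 was called (adjusted p = 0.0357), and without OL replicate 2 Rara was (1.32, adjusted p = 0.0306). After each library was set to its 0 h median, 34 transcripts were called longer and 15 shorter, in place of 275 and 12. Under that scaling the log2 difference was 0.07 for Nr1h2, 0.27 for Rxra, 0.32 for Rxrb, 0 for Nr3c1 and 0.62 for Rara, each smaller than the value given above. Refitted without the 6 h libraries, the difference was 1.06 for Nr1h2, 0.26 for Rxrb and 0.19 for Nr3c1, and 1.62 for Rxra and 0.64 for Rara. With each replicate centred on its median half-life, Nr1h2 had 0.84, Rxra 0.79 and Rxrb 0.24, and the sign turned for Rara (-0.18) and Nr3c1 (-0.39).

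**Figure D4:**
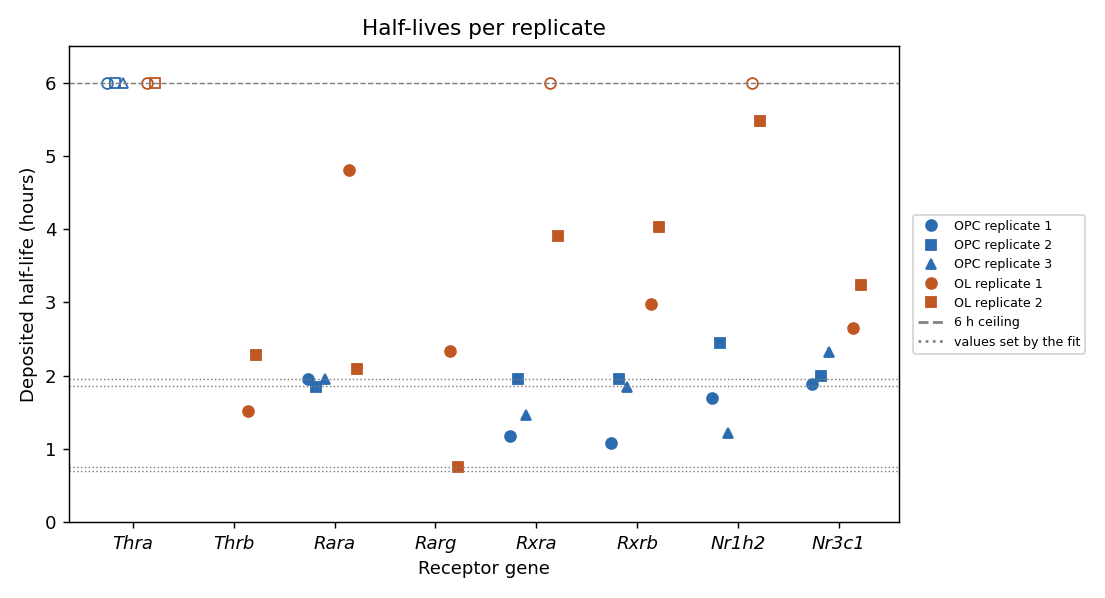
Deposited half-life of each receptor in hours, with 1 point per replicate, blue for OPCs and orange for OLs; open points lie at the 6 h ceiling (dashed), and dotted lines mark values that the fitting method itself returns. Thra is at the ceiling in all 5 replicates, and the OL points of Rxra, Rxrb, Nr1h2, Nr3c1 and Rara lie above their OPC points.

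Several of these half-lives were values that the fitting method returns for many transcripts. A single exponential fitted by least absolute deviations has an optimum that does not depend on the levels when the 4 later time points fall in certain patterns above and below the curve. There were 4 such values, 1.96, 1.86, 0.76 and 0.70 h. The first arises with the 1 and 2 h points above and the 4 and 6 h points below the curve, and it held 25.6% of the half-lives of OPC replicate 2 but 0.474% to 7.43% of those of the other replicates. Of the 34 half-lives of the receptors, 5 lay at such a value, within 0.0001 h. These were Rara in OPC replicates 1 and 3 and Rxra and Rxrb in OPC replicate 2, all at 1.96 h, and Rarg in OL replicate 2, at 0.76 h. At these points the half-life records the pattern of the points and not a fine measure of the rate, so differences among receptors at 1.96 h cannot be read.

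**Figure D5:**
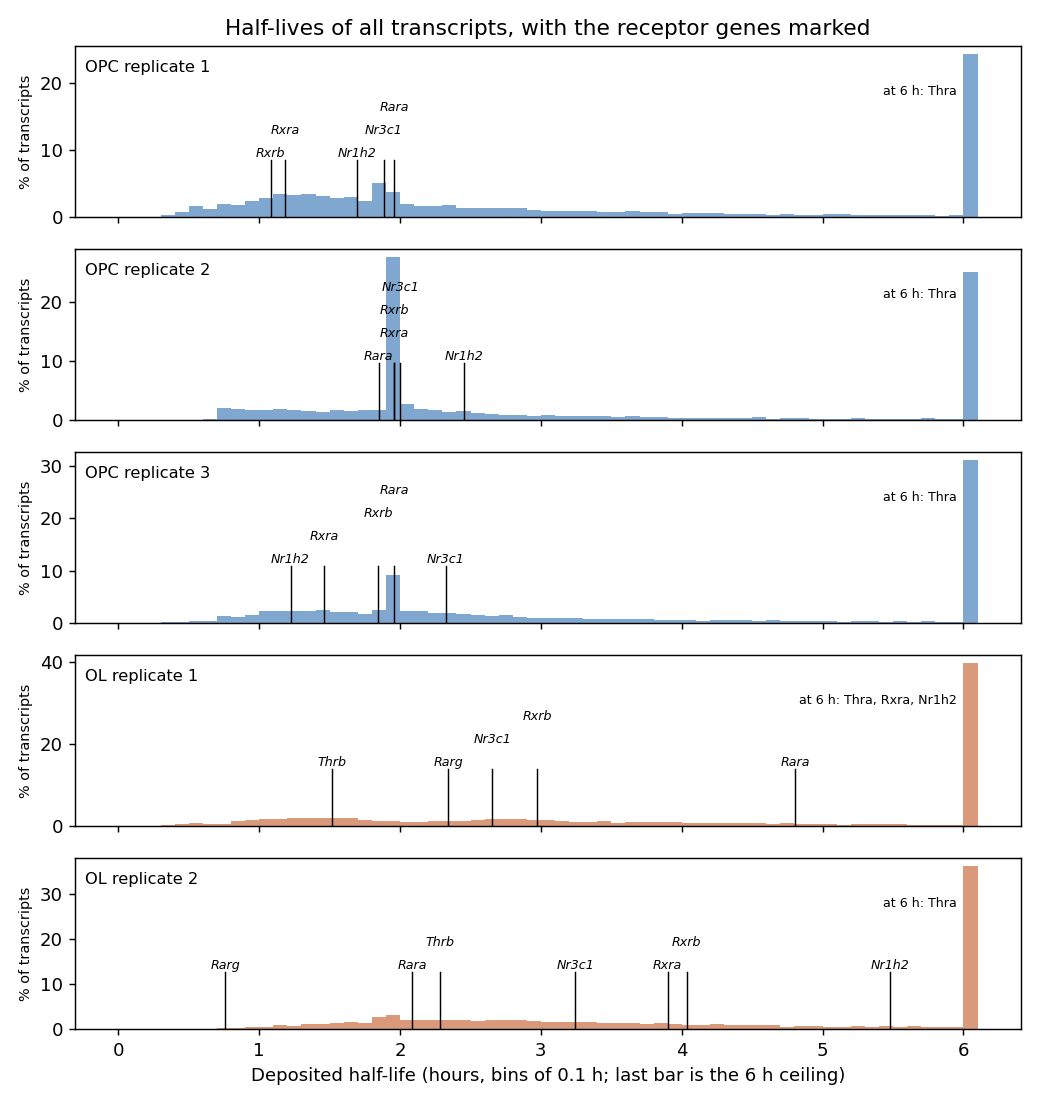
Share of transcripts (vertical axis, percent) by half-life in bins of 0.1 h (horizontal axis, hours) for each replicate, with the receptors marked by black lines. The tall bar near 2 h in OPC replicate 2 holds the 25.6% of transcripts at 1.96 h, among them Rxra and Rxrb, and the last bar is the ceiling, with 24.3% to 39.7% of transcripts.

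The receptors differed in their codons as well, which the choice by name did not use. UUU bias is the percent of phenylalanine codons that are UUU, and AAA bias the percent of lysine codons that are AAA. Nr3c1 had the highest of both, with a UUU bias of 70.8% (above 91.1% of transcripts) and an AAA bias of 72.9% (above 98.1%). Nr1h2, Rxra, Rxrb and Rara were at the other end, with a UUU bias of 16.7%, 17.6%, 20% and 25%, where the median transcript had 44.4%. Their AAA bias was 17.4%, 18.5%, 28% and 25%, against a median of 37.5%. Thra lay near the median in UUU bias, at 43.8%, and below it in AAA bias, at 29.4%, Thrb was at 57.9% and 48.6%, and Rarg at 50% and 25.8%. The percent of codons ending in G or C was 47.2% in Nr3c1 and 76.7% in Nr1h2, the extremes among the receptors, with a median of 60.6% over all transcripts. No relation between these values and the half-lives was tested over 8 genes.

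The lengths of the 3′ UTRs ran from 369 bases in Nr1h2 to 4424 bases in Thrb, with 583 in Thra, 866 in Rxrb, 1086 in Rarg, 1305 in Rara, 2495 in Nr3c1 and 3269 in Rxra, where the median transcript had 1096. The transcripts lay on GRCm38 at chr11:98741873-98765111 (Thra, plus strand, 9 exons), chr14:17981529-18038090 (Thrb, plus, 7 exons), chr11:98937718-98974942 (Rara, plus, 10 exons) and chr15:102234938-102257517 (Rarg, minus, 10 exons). Rxra, Rxrb and Nr1h2 lay at chr2:27677201-27762957 (plus, 10 exons), chr17:34031812-34038397 (plus, 10 exons) and chr7:44549616-44553949 (minus, 10 exons). The listed transcripts of the receptors had no exonic base in common with another gene on either strand.

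Among genes known to answer to thyroid hormone, those listed for both cell types rose. Of 12 such genes, 2 were listed for both cell types and both were higher in OLs, where 14.1% of all transcripts were called higher. Klf9, a transcription factor gene induced by T3 and by glucocorticoids, was at 6.25 to 10.4 FPKM in OPCs and 40.3 to 51.8 FPKM in OLs (log2 change 2.26 ± 0.28, SE; limma adjusted p = 0.000426), and Mbp, which encodes myelin basic protein and is itself among the OL markers used here, rose by 9.27 ± 0.41 (adjusted p = 6.75e-06). Hr, Mag and Mog were listed for OLs only. Both calls held without any 1 replicate.

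Of 18 retinoid genes, 5 were listed for both cell types, and 1 of these was called higher in OLs at 0 h, against 14.1% of all transcripts. Rdh11, a retinol dehydrogenase gene, was at 16.0 to 17.9 FPKM in OPCs and 26.6 to 26.8 FPKM in OLs (0.64 ± 0.22, SE; limma adjusted p = 0.0494), and the call was lost without any 1 of the 5 replicates (0.0549 to 0.181) and with each library centred on its median (0.61, adjusted p = 0.068). The half-lives of Rdh10, which starts retinoic acid synthesis, and Rdh11, 2 of the 5, were called longer in OLs, against 3.39% of all transcripts. Rdh10 had 1.16 to 1.44 h in OPCs and 4.90 and 5.53 h in OLs (log2 difference 1.96 ± 0.14, adjusted p = 0.0264), lost without OPC replicate 2 or 3 or OL replicate 1 or 2 (0.0688 to 0.0966). Rdh11 had 1.96 to 2.31 h in OPCs and 4.82 h and the ceiling in OLs (1.37 ± 0.14, adjusted p = 0.0429), lost without any 1 replicate (0.0845 to 0.13). All 6 half-life calls named among the gene lists, these and those of Per1, Srebf1, Dhcr7 and Nr2c2 below, were also lost without 6 h, with each library set to its 0 h median and with each replicate centred on its median half-life. The median 0 h change of the 5 genes was 0.35, against -0.01 for all transcripts.

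Of 8 chaperones and enzymes of the glucocorticoid receptor, 6 were listed for both cell types, with a median change of -0.59, and 2 were lower in OLs, where 17.5% of all transcripts were called lower. Fkbp4, a co-chaperone of steroid receptors, was at 117 to 166 FPKM in OPCs and 56.7 to 61.5 FPKM in OLs (-1.19 ± 0.20, SE; limma adjusted p = 0.00202). Hsp90ab1, the chaperone itself, was at 539 to 633 and 355 to 369 FPKM (-0.70 ± 0.20, adjusted p = 0.0247), lost without OPC replicate 3 or either OL replicate (0.0701 to 0.161). Of 11 known glucocorticoid responsive genes, 9 were listed for both cell types, with a median change of 0.54, and 3 rose and 0 fell, where 14.1% of all transcripts were called higher and 17.5% lower. Besides Klf9 these were Sgk1, a kinase gene, at 34.9 to 51.3 FPKM in OPCs and 256 to 354 FPKM in OLs (2.73 ± 0.23, adjusted p = 5.03e-05), and Mt1, a metallothionein gene, at 36.8 to 156 and 349 to 1907 FPKM (3.57 ± 0.70, adjusted p = 0.00486), lost without OL replicate 2 (2.34, adjusted p = 0.0557). Per1, a clock gene, was the 1 of 9 called longer-lived in OLs, against 3.39% of all transcripts (log2 difference 1.64 ± 0.16, adjusted p = 0.0409), lost without any 1 replicate (0.0573 to 0.142).

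Known targets of the liver X receptors moved both ways. Of 10, 6 were listed for both cell types, 2 rose and 1 fell, against the same 14.1% and 17.5%. Apoe, which carries lipids between cells, was at 1.69 to 5.28 FPKM in OPCs and 147 to 416 FPKM in OLs (6.10 ± 0.48, SE; limma adjusted p = 4.49e-05), and Abca1, a cholesterol exporter, at 1.18 to 2.30 and 11 to 31.1 FPKM (2.89 ± 0.42, adjusted p = 0.00103). Srebf1, a regulator of lipid synthesis, was at 89.6 to 110 FPKM in OPCs and 36.1 to 64.7 FPKM in OLs (-1.07 ± 0.25, adjusted p = 0.0108), lost without OPC replicate 3 (-1.02, adjusted p = 0.0514) or OL replicate 1 (-0.65, adjusted p = 0.101). Its half-life, 1 of 5 tested, was called longer in OLs at 1.62 to 1.96 h against the ceiling and 5.63 h (1.68 ± 0.10, adjusted p = 0.0222), lost without OPC replicate 2 or 3 or either OL replicate (0.0571 to 0.0922). Apoe is also made by astrocytes, whose markers summed to 22.9 to 37.0 FPKM in OPCs and 85.9 to 106 FPKM in OLs, and their part in its change was not tested. Of 5 vitamin D genes 1 was listed for both cell types, Dhcr7, which uses the precursor of the vitamin for cholesterol, with 4.01 to 4.38 h in OPCs and the ceiling in both OL replicates (0.54 ± 0.05 with the ceiling entered as 6 h, adjusted p = 0.0403), lost without OPC replicate 1 or 3 or either OL replicate (0.0961 to 0.146).

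The coregulators that receptors recruit were nearly all listed. Of 18, 16 were listed for both cell types, with a median change of 0.25. At 0 h 1 was higher and 2 were lower in OLs, against 14.1% and 17.5% of all transcripts. Carm1, an arginine methyltransferase of coactivator complexes, was at 15.7 to 19.6 FPKM in OPCs and 3.71 to 10.1 FPKM in OLs (-1.37 ± 0.36, SE; limma adjusted p = 0.0196), lost without OPC replicate 3 (-1.30, adjusted p = 0.073) or OL replicate 1 (-0.75, adjusted p = 0.161). Hdac3, the deacetylase of the corepressor complex, was at 64.3 to 77.7 and 36.1 to 48.5 FPKM (-0.75 ± 0.20, adjusted p = 0.0189), lost without OPC replicate 3 or OL replicate 2 (0.0831 to 0.145). Labelled RNA of 16 of 17 coregulators fell in OPCs and of 15 of 17 in OLs, where 81.9% and 68.9% of all transcripts did.

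Of 38 other nuclear receptor genes, 11 were listed for both cell types, with a median change of 0.22, and 2 rose and 2 fell, against 14.1% and 17.5% of all transcripts. Rora, an orphan receptor gene, was at 1.66 to 2.98 FPKM in OPCs and 6.85 to 13.8 FPKM in OLs (1.64 ± 0.36, SE; limma adjusted p = 0.00819), lost without OL replicate 2 (0.0867). Nr1d1, the clock repressor gene that lies opposite the end of Thra-201, was at 7.90 to 13.7 and 22.6 to 30.3 FPKM (1.16 ± 0.30, adjusted p = 0.0162), lost without OL replicate 1 or 2 (0.0607 to 0.14). If counting did not use strand, reads from Nr1d1 and from the Thra-201 end cannot be told apart. Nr2f6 was at 39.1 to 59.2 and 15.9 to 27.8 FPKM (-1.07 ± 0.28, adjusted p = 0.0193), lost without OL replicate 1 (-0.68, adjusted p = 0.183), and Esrra at 29.6 to 36.3 and 20.2 to 21.5 FPKM (-0.63 ± 0.21, adjusted p = 0.0429), lost without OPC replicate 2 or 3 or either OL replicate (0.0767 to 0.184). By half-life 1 of 10 was called longer in OLs, against 3.39% of all transcripts. Nr2c2 had a half-life of 1.96 h in all OPC replicates, a value the fit returns, and 2.50 and 2.43 h in OLs (0.33 ± 0.02, adjusted p = 0.0199), lost without any 1 OPC replicate (0.0617 to 0.0691).

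The transcripts with the pattern most like each receptor were found by Pearson's r over the 25 libraries, on log2(FPKM + 1) less the median of each library. The libraries share 5 time courses, so these values are a description. Thra was most like Abhd4 (r = 0.99), Atp6v0d1 (0.98) and Tmem59 (0.98), and Nr3c1 was most like Med13 (0.89), Tjp1 (0.89) and Zhx3 (0.86). Rxra was most like Itpkb (0.87), Pald1 (0.86) and Mapk14 (0.83), and Rara was most like Tspan11 (0.83), Bend4 (0.83) and Thap4 (0.79). The likenesses were weaker for Rxrb, with Slc35f5 (0.76) and Gmppb (0.74), and weakest for Nr1h2, with Cds2 (0.69), Bri3 (0.68) and Atp6v1b2 (0.68).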

How the data were processed

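RNA labelled with 5-EU was sequenced by the authors after biotin coupling and streptavidin pull-down. Reads were aligned to GRCm38 and tabulated with HISAT2 2.1.0 and StringTie 1.3.5, as the submitters' processing notes and the methods name them, over 1 canonical coding transcript per gene of GENCODE vM9. The deposited FPKM values had been scaled by the authors to labelled spike-in RNA, and transcripts under 1 FPKM at 0 h, or at 0 at both 1 and 2 h, were left out. An error in 1 scale factor moves every transcript of that library. The deposited half-lives, in hours, are the authors' other measure, a least-absolute-deviation fit to the levels of a replicate divided by its 0 h value, and were set here to at most 6 h. A refit fell within 0.01 h of 98.2% to 99.9% of them in the replicate of the same name. The 1 control library without biotin was not analysed here, and 0 columns of other samples were found.

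Here, log2(FPKM + 1) and log2 half-life were compared by limma 3.58.1 in R 4.3.3, over all transcripts of a table, with Benjamini-Hochberg adjustment and a threshold of 0.05. The 0 h level was compared over 5 libraries. Slopes were fitted on time with the replicate as a term, and their difference by the interaction with cell type over 25 libraries. Each replicate had its own level but no slope of its own. The errors and p-values of slopes therefore measure the scatter of libraries about the lines, not the spread of slopes between replicates. The fits were tested on simulated data. Figures were drawn with matplotlib 3.10.9. Transcript sequences and coordinates came from GENCODE M21 on the same build, with 10090 of 10104 transcripts usable. The members and gene lists were chosen with earlier results of these data known. By rule, all members were named, together with the up to 3 most changed called genes per direction of each list and the 3 transcripts most like each member. A few genes that this rule names are not reported here. Whether replicates are separate cultures is not stated in the labels, so p-values measure the spread between these libraries. Values identical between replicates made up at most 0.0117%. The alternatives were another pseudocount (0.1), a filter at a mean of 5 FPKM, other scalings, fits without 6 h, the replicate block, and leaving out each replicate.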

Additional observations from a re-analysis of the deposited data

Results flagged for a closer look

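For 4 receptors the slope over the chase differed between the cell types by the test of the difference itself, OL minus OPC in log2(FPKM + 1) per h. The difference was 0.40 for Rxrb, 0.36 for Nr1h2, 0.29 for Rxra and 0.17 for Rara, each a less steep fall in OLs, where the median of all transcripts was 0.14 and 31.5% of transcripts were called in this direction. All 4 calls were lost without OL replicate 2, with the differences at 0.35, 0.38, 0.29 and 0.20 in the same order. They were also lost when each library was set to its 0 h median, with the differences at 0.19, 0.15, 0.08 and -0.046. Groups of 3 and 2 replicates are too small to test for single libraries that stand apart.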

How the results depend on the processing

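Depth is unknown, the OLs have 2 replicates, and a fold of low genes is understated by the pseudocount. Among the values recomputed for single receptors, 216 kept their direction and side of the threshold, 34 lost a call and 7 gained one with the sign kept, and 20 turned sign, some of which also lost a call or, for the slope difference of Thra, gained one. For the 0 h level, 0 to 1 members were called without a replicate, and without OL replicate 2 or with centred libraries the 1 called was Rxra. For half-life, 1 member was called with half-life in hours and 0 to 1 without a replicate, against 0. For falling members, setting each library to its 0 h median left 2 in OPCs and 0 in OLs. In OLs the filter at 5 FPKM left 4, since it removed Thrb, Rara and Rarg, leaving out 6 h left 3, and leaving out a replicate left 3 to 5. For the slope difference, 1 member was called at the 0 h median, 2 (Nr3c1, Rxra) without 6 h and 0 to 4 without a replicate.

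Per the study the OL replicates matched 2 of the OPC replicates, but whether by number is not said. Same-numbered 0 h libraries deviated together only weakly (r = 0.06 for replicates 1 and 0.01 for replicates 2). The highest r was 0.09, for OPC replicate 3 with OL replicate 2. With 2 OL replicates the deviations of 1 mirror those of the other, so these values cannot settle the pairing. With the replicate block 1 member was called at 0 h and 0 by half-life, and 0 of 8112 transcripts were called by half-life, against 287. Under it the 0 h calls of Rdh11 (adjusted p = 0.156), Hsp90ab1 (0.119) and Esrra (0.105) were lost. With a replicate block shared across cell types, or no replicate block, 4 slope differences were called. Over all transcripts, half-life calls were 15 without 6 h, 49 at the 0 h median, 1 after centring each replicate and 600 in hours, 167 to 236 without a replicate. Slope difference calls were 1610 without 6 h and 765 to 2668 without a replicate, and 0 h calls were 1183 to 2912 without a replicate. OL falls were 4590 without 6 h.

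Signs turned for 0 h levels near 0, in Rxrb (replicate block -0.0255, and -0.0613 to 0.275 without a replicate) and Nr1h2 (replicate block -0.0255, and -0.12 to 0.236). Centring half-lives turned Rara (-0.18), Nr3c1 (-0.39), Dhcr7 (-0.37) and Nr2c2 (-0.57), and Nr2c2 also turned without 6 h (-0.34). At the 0 h median the slope of Rara turned in OPCs (0.0814), and in OLs those of Thrb (0.10), Rara (0.0433), Rarg (0.00047), Rxrb (0.0115) and Nr1h2 (0.0958), and the slope differences of Thra (-0.18), Rara (-0.046) and Nr3c1 (-0.0442). Without OL replicate 1 Thra turned in its OL slope (-0.0299 to 0.125 without a replicate) and slope difference (-0.0461 to 0.109). Causes were not tested.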

Other observations

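The early points of the chase were uneven in a way that followed the replicate. At 1 h 37.7% of transcripts in OPC replicate 2 and 41.4% in OL replicate 2 stood above their own 0 h level, against 3.99% to 13.8% in the other replicates. In OPC replicate 2 this held for 4 of 6 receptors, Thra (102%), Rara (111%), Rxrb (105%) and Nr1h2 (104%). It held for 1 receptor in each of OPC replicate 3 (Rara, 133%), OL replicate 1 (Rxra, 123%) and OL replicate 2 (Thrb, 186%), and for 0 of 6 in OPC replicate 1. What lies behind these points was not tested.

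Among the nuclear receptors, Nr2c1, Nr4a2 and Nr6a1 were listed for OLs only, as Thrb and Rarg were, and 24 of the 38 other nuclear receptor genes were listed for neither cell type. The corepressor subunit Gps2 was listed for OPCs only and Nrip1, another corepressor, for OLs only. A gene listed for 1 cell type only can lie close to the limit of 1 FPKM in the other.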
